A study of Mus musculus with 9 samples.

Results

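The fibrillar collagens are the chains that build the striated fibrils of connective tissue. The 10 genes examined were Col1a1, Col1a2, Col3a1, Col5a1, Col5a2, Col5a3, Col2a1, Col11a1, Col11a2 and Col27a1, out of 37008 gene names on the array. They were read through every non-control probe that carries 1 of these names, 24 probes of 56605, and each probe was followed by itself. The arrays were single-colour Agilent expression arrays, 3 per group, so that 9 arrays in 3 groups were compared. The labels give all cells as primary hepatic stellate cells of C57BL/6 mice aged 10 weeks, taken from the liver by perfusion with collagenase. The si-cav group was kept on hard culture plates for 7 days and then transfected overnight, at 5 nM, with siRNA targeting Cav1, which encodes the caveolar coat protein caveolin-1. The nc group was cultured in the same way and received a negative control siRNA at the same concentration. The qhsc group was labelled quiescent and untreated, with no harvest time stated. The labels name no purification after perfusion. Nothing in them states that samples within a group are from different mice or cultures, so each p-value reflects the spread among these arrays only, and that spread may be technical.

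Fibrillar collagen chains fold into a triple helix with a glycine at the start of each repeated Gly-X-Y unit, are cleaved outside the cell and then pack into fibrils. Type I collagen, made of Col1a1 and Col1a2 chains, and type III collagen, made of Col3a1 chains, form the bulk of scar fibrils in liver. The type V chains Col5a1, Col5a2 and Col5a3 join those fibrils in small amounts and limit their width. Col2a1, Col11a1, Col11a2 and Col27a1 are best known from cartilage. A quiescent stellate cell stores retinoids and makes little fibrillar collagen, and an activated one becomes a myofibroblast, the main collagen source of the fibrotic liver.

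Signals are given as the log2 of the processed signal minus the 75th percentile of the array, so that a value of 0 is that percentile. Testing required a signal well above background throughout at least 1 group of 3 arrays, which held for 20 of the 24 collagen probes and 36817 probes in all. Every gene kept at least 1 tested probe. No spot on any array was saturated. Probes above background made up 60.1 to 64.0% of each si-cav array, 61.9 to 69.0% of each nc array and 51.5 to 58.4% of each qhsc array, where the lowest share belonged to qhsc array 2. The siRNA target checked the labels. Cav1 had log2 signals of -2.87, -2.89 and -3.07 on the si-cav arrays, against -1.34, -1.12 and -1.09 on the nc arrays. The si-cav mean was 29.4% of the nc mean (log2 difference -1.76, SE 0.24, limma adjusted p = 0.17), and the groups did not overlap. Cav1 passed the test over the 6 si-cav and nc arrays alone (adjusted p = 0.048), without qhsc array 1 (0.022) and with array weights (0.0011). It also passed after normexp, an alternative background correction that here adds an offset of 50 to each signal before the scaling (log2 -1.25, adjusted p = 0.0095). With normexp and quantile normalization its adjusted p was 0.011, and under the other alternatives this brighter probe stayed uncalled. A second Cav1 probe was at 34.3% of the nc mean (limma adjusted p = 0.43). That probe passed with array weights (0.0035) and after normexp with either scaling (0.023 and 0.015), but under no other alternative. Of the stellate markers, 10 of 12 passed the filter, and all 10 were above background in qhsc cells. Their summed signal, in units of the 75th percentile, was 47.4 to 49.8 in si-cav cells, 50.9 to 52.7 in nc cells and 28.1 to 77.3 in qhsc cells. Ecm1, named with its values seen, was the brightest of them in si-cav, nc and qhsc cells (mean log2 4.72, 4.82 and 4.75). Of these 10 markers 2 were higher and 5 lower in nc than in qhsc cells. Lrat, the enzyme that makes retinyl esters, was above background on 0 si-cav, 0 nc and 3 qhsc arrays, while the transcription factor gene Hand2 averaged a log2 signal of 0.43 in nc cells and -3.35 in qhsc cells, and Pdgfrb, a growth factor receptor gene, 4.05 and -0.46; these 3 were named with their values seen. The qhsc samples also carried marker signal of hepatocytes, endothelial cells, Kupffer cells, and lymphocytes and neutrophils, with the sums given further on.

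Probes of 1 gene gave changes of different size, so the sequences of some probes are described. The part of the sequence in those sizes was not tested. Coordinates are on mm9 as the scanner files give them. The ends of the pair of Col1a1 probes that were each printed 10 times on the array are shown because they overlap on chromosome 11, plus strand, the first at chr11:94813075-94813134 and the second at chr11:94813115-94813174. Capitals mark the 20 bases they share.
Col1a1 first probe, last 30 bases: tttttaccttTGACCAACTGAACGTGACCA
Col1a1 second probe, first 30 bases: TGACCAACTGAACGTGACCAaaaaccaaaa

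Of the 60 bases of the second probe 31 are A, against 14 of 60 in the first. In the whole set only this pair overlapped, and 0 of the 24 probe sequences belonged also to a probe of another gene. Only 2 probes read the glycine repeat itself, 1 of Col11a2 and 1 of Col5a3, and they are shown because the values of those genes did not follow the type I chains. Capitals mark the glycine codons that open each Gly-X-Y unit, 6 in the Col11a2 probe at chr17:34189287-34189453, plus strand, and 7 in the Col5a3 probe at chr9:20590066-20590795, minus strand. These 60 bases cover 167 and 730 bases of the genome, so each probe is split by at least 1 gap.
Col11a2 glycine-repeat probe: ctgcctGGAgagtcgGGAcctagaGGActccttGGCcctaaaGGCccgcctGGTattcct
Col5a3 glycine-repeat probe: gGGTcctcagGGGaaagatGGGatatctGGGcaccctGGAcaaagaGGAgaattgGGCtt

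Culture-activated cells with the control siRNA were set against quiescent cells to see which fibril chains differ between them. The nc cells were both cultured and transfected and the qhsc cells were untreated, so the parts of culture and transfection cannot be told apart. The type I, III and V chains were far higher in nc cells, apart from Col5a3, and the chains best known from cartilage were dim, with differences that depended on the background correction. Of 20 probes 18 were higher in nc cells, 0 were lower and 2 were not called, and 9 of the 10 genes had at least 1 probe that rose. Over all probes 43% were called higher and 25% lower in this comparison. The median log2 difference was 4.73 over the collagen probes and 0.36 over all probes. Of the 20 probes 12 were above background on all cultured arrays but not on all qhsc arrays, so that they were tested only through the groups where they are bright, and the counts and median over the 20 are a description. Of the 8 above background on all 9 arrays 7 were higher in nc cells, those of Col1a1 (3 probes), Col1a2, Col3a1, Col5a1 and Col27a1. Among all 24751 probes that passed that stricter filter, 41.4% were higher in nc cells. After normexp background correction 14 of the 20 were called higher and 1 lower, with at least 1 probe higher in 7 genes, where 31.1% of all probes were higher. In bulk RNA a lower share of stellate cells and less RNA per cell cannot be told apart.

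Col1a1, the more abundant chain of type I collagen, was read best by the first of the overlapping probes. It had log2 signals of 6.76, 6.97 and 6.93 on the nc arrays, against 0.77, 1.77 and 0.43 on the qhsc arrays. The groups lay far apart, and qhsc array 2 was the highest of the quiescent arrays. The difference was 59.4-fold (95% confidence interval 37.0 to 95.5, log2 5.89, SE 0.30, adjusted p = 2.4e-07). The overlapping probe gave a log2 difference of 4.77, and a probe at chr11:94814188-94814247 further along the gene gave 7.08. All 3 tested Col1a1 probes rose, and their estimates spanned 2.31 on the log2 scale. The other Col1a1 probe, at chr11:94800628-94800687, was designed on another transcript record and was near background everywhere, above it on 1 si-cav, 2 nc and 0 qhsc arrays.

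Col1a2, the partner chain of type I collagen, rose in all of its 4 probes. The RefSeq probe at chr6:4490619-4490678 had log2 signals of 7.28, 7.58 and 7.50 on the nc arrays, against 2.29, 3.07 and 1.63 on the qhsc arrays. It rose 34.9-fold (log2 5.13, SE 0.31, adjusted p = 7e-07), again with qhsc array 2 as the highest quiescent array. The probes at chr6:4479333-4479392 and chr6:4464456-4464515, designed on Ensembl transcripts, rose by log2 differences of 8.22 and 7.31, or 5.04 and 3.96 after normexp background correction. Each was above background on 1 of the 3 qhsc arrays, and the size of both rises depended on single quiescent arrays. The probe with the difference of 7.31 read -7.62, -2.74 and -7.22 on the qhsc arrays, and its fold was 158 over all arrays, 467 without qhsc array 2, 86.1 without qhsc array 1 and 98.7 without qhsc array 3. The other one moved to 179-fold without qhsc array 1, against 299-fold over all arrays. The dimmest probe, at chr6:4484938-4484997, was below background on all qhsc arrays and at least 1.51-fold higher in nc cells (adjusted p = 0.00023), and its log2 difference was 2.48 in the main scaling and -0.078 once the background was corrected by normexp (adjusted p = 0.63).

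Col3a1, the chain of type III collagen, rose 12.2-fold by its RefSeq probe at chr1:45405589-45405648 (log2 3.61, SE 0.29, adjusted p = 4.8e-06). That probe read 5.99, 6.04 and 6.01 on the nc arrays, against 2.31, 3.13 and 1.77 on the qhsc arrays. The nc arrays were close together, and qhsc array 2 was once more the highest of its group. The probes at chr1:45373784-45373843 and chr1:45381765-45381824, on Ensembl transcripts of the same gene, were below background on all qhsc arrays. Both were higher in nc cells, at least 57.1-fold and at least 33.5-fold (adjusted p = 2.3e-09 and 1.2e-07), by the deposited processed signal. After normexp background correction the fitted folds were 11.5 and 7.46, below those bounds.

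Among the type V chains, Col5a1 and Col5a2 rose and Col5a3 did not pass the test. Col5a1, at chr2:27894595-27894654, had log2 signals of 4.97, 4.54 and 4.52 on the nc arrays, against -0.21, 0.99 and -0.84 on the qhsc arrays. It rose 25.9-fold (log2 4.70, SE 0.40, adjusted p = 6.3e-06). Col5a2, which lies on the minus strand of chromosome 1, read 1.53, 2.29 and 2.26 on the nc arrays, against -4.86, -4.81 and -4.88 on the qhsc arrays, at chr1:45431204-45431263. Its quiescent arrays lay close together (SD 0.03, n = 3), with nc array 1 the lowest of the nc arrays. It rose 117-fold (log2 6.88, SE 0.21, adjusted p = 1.2e-08), and a second probe at chr1:45445876-45445935 gave a log2 difference of 5.40. After normexp background correction the folds were 23.7 and 6.92. Both Col5a2 probes were above background on 2 of the 3 qhsc arrays.

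Col5a3 went a different way from its type V partners. Its probe at chr9:20574592-20574651 was above background on every array, with log2 signals of -0.64, -0.79 and -0.84 on the nc arrays, against -1.08, -0.44 and -0.67 on the qhsc arrays. The groups overlapped, and the log2 difference was -0.03 (95% confidence interval -0.43 to 0.37, adjusted p = 0.90). The glycine-repeat probe of Col5a3 shown above was not tested, since it was above background on 0 si-cav, 0 nc and 1 qhsc arrays. Its log2 signals were -6.17, -6.91 and -7.27 on the nc arrays, against -6.57, -2.85 and -6.86 on the qhsc arrays, where qhsc array 2 alone stood high.

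**Figure D1:**
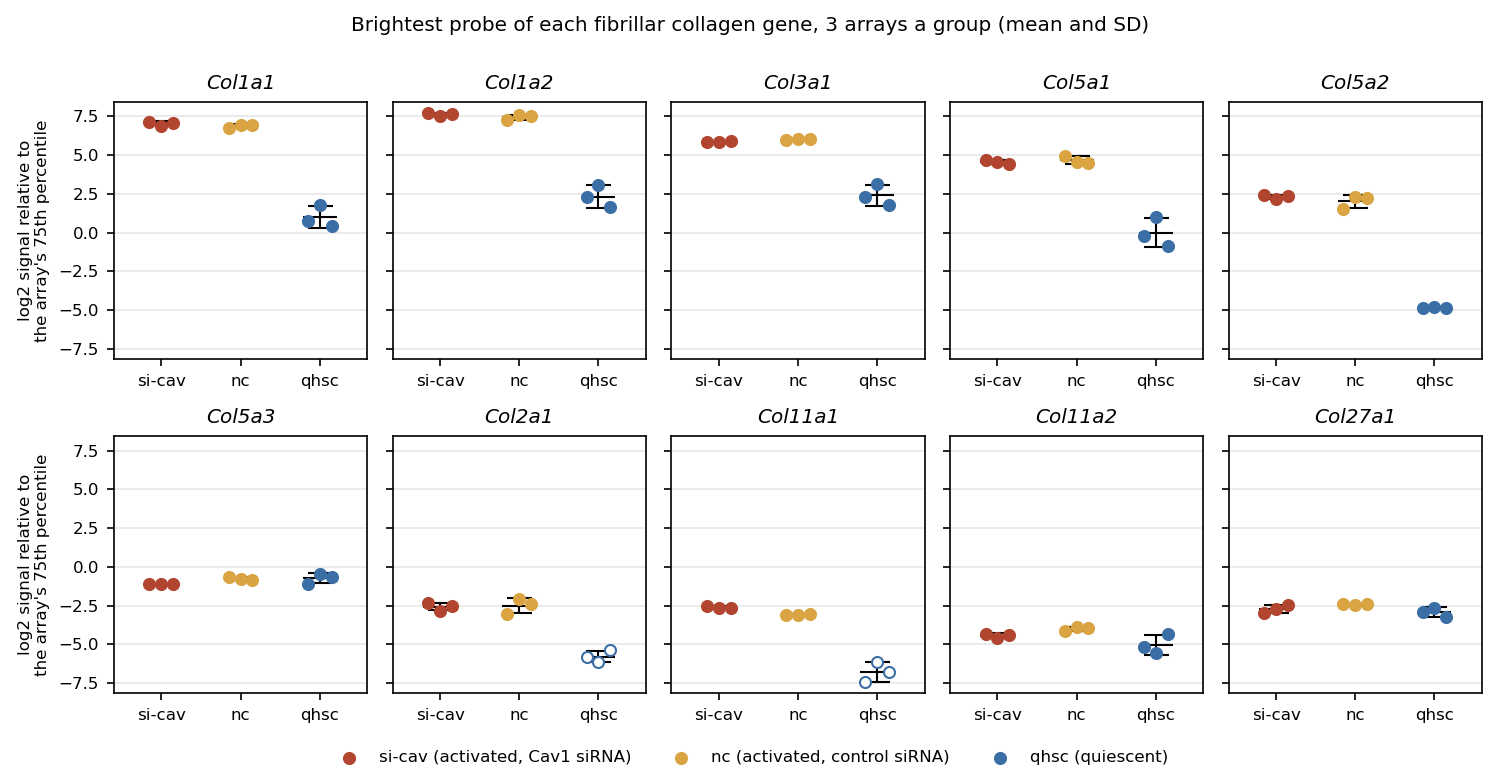
Each panel plots the brightest tested probe of 1 gene, as log2 signal relative to the 75th percentile of the array (y axis), on the 3 arrays of si-cav, nc and qhsc (points), with the mean and SD as bars; open points mark a group in which the probe was below background on all arrays. The si-cav and nc points of Col1a1, Col1a2, Col3a1, Col5a1, Col5a2, Col2a1 and Col11a1 sit far above the qhsc points, while those of Col5a3 overlap with them or lie close by.

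The chains best known from cartilage had low signals. Col2a1, the main chain of cartilage fibrils, was read at chr15:97806485-97806544, minus strand. It gave -3.06, -2.07 and -2.38 on the nc arrays, against -5.81, -6.15 and -5.40 on the qhsc arrays, where no array was above background. By the processed signal it was at least 5.51-fold higher in nc cells (adjusted p = 8.4e-06), and after normexp background correction 1.67-fold (95% confidence interval 1.32 to 2.11, adjusted p = 0.0012). Col11a1, a nucleator of cartilage fibrils, was read at chr3:113922153-113922211. It read -3.10, -3.09 and -3.05 on the nc arrays, against -7.41, -6.15 and -6.76 on the qhsc arrays, again with no qhsc array above background. It was at least 3.70-fold higher by the processed signal (adjusted p = 2.7e-06) and 1.37-fold after normexp background correction (1.15 to 1.64, adjusted p = 0.0042). Both probes were tested only through the cultured groups, and neither size is settled. The other 2 Col11a1 probes failed the filter. The probe at chr3:113793086-113793145 was above background on 2 si-cav, 1 nc and 0 qhsc arrays, and the probe at chr3:113856822-113856881 on none of the 9.

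Col11a2, the partner of Col11a1 in type XI collagen, gave no common answer from its probes. The probe at chr17:34203113-34203172 read -4.15, -3.90 and -3.94 on the nc arrays, against -5.18, -5.58 and -4.31 on the qhsc arrays. The groups did not overlap, although qhsc array 3 came close, the probe was above background on 2 of the 3 qhsc arrays, and the log2 difference was 1.02 (SE 0.29, adjusted p = 0.011), or -0.24 after normexp background correction (adjusted p = 0.14). The glycine-repeat probe of Col11a2 had a log2 difference of -0.37 (95% confidence interval -0.79 to 0.05, adjusted p = 0.11). It was called lower in nc cells only after normexp background correction among the alternatives run (-0.58, adjusted p = 0.0045). Its groups overlapped, at -4.82, -5.27 and -5.05 on the nc arrays, against -4.84, -4.63 and -4.57 on the qhsc arrays. Before scaling, its processed signals were higher on the nc arrays, at 17.944, 19.12 and 20.798, against 12.547, 15.985 and 16.366 on the qhsc arrays. All of these lie below the normexp offset of 50. The 75th percentile was also higher on the nc arrays (log2 8.99 to 9.53, against 8.49 to 8.62). The part of offset and scaling in the lower call was not tested.

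Col27a1, a short-helix chain expressed in developing cartilage, had small differences. The probe at chr4:62995485-62995544 read -2.41, -2.48 and -2.38 on the nc arrays, against -2.92, -2.63 and -3.25 on the qhsc arrays, a log2 difference of 0.51 (SE 0.20, adjusted p = 0.045). This call was the weakest of the 18. It was lost without any 1 of nc array 1, 2 or 3 (log2 0.50, 0.54 and 0.49, adjusted p = 0.094, 0.083 and 0.11), without qhsc array 1 or 3 (0.52 and 0.35, adjusted p = 0.078 and 0.12) and without si-cav array 2 (0.51, adjusted p = 0.068). It was also lost after normexp background correction (0.047, adjusted p = 0.74) and over the 6 nc and qhsc arrays alone (adjusted p = 0.07), and it held in 9 of 22 alternatives. The second probe, at chr4:62953608-62953667, was above background on 2 of the 3 qhsc arrays and gave 1.09 (SE 0.29, adjusted p = 0.0081), but 0.035 after normexp background correction (adjusted p = 0.80).

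The slides could be compared in part. Slide 1 held the 3 qhsc arrays with nc array 1, and slide 2 held the other nc arrays with the 3 si-cav arrays. Within slide 1, with nc array 1 as the only activated sample and its spread taken to equal that of the qhsc arrays, 15 of 20 collagen probes were higher in nc cells and 0 were lower, where 17.1% of all probes were higher. Col1a1 gave a log2 difference of 5.76 there, Col1a2 4.95, Col3a1 3.59, Col5a1 4.99 and Col5a2 6.38 by their brightest probes. With the slide as a block, 16 were higher and 0 lower, where 32.4% of all probes were higher. The calls lost in both fits were those of Col11a2 (0.87, adjusted p = 0.13 with the block and 0.30 within the slide) and of the brighter Col27a1 probe (0.53, adjusted p = 0.17 and 0.41), and the second Col27a1 probe was lost within the slide alone (1.22, adjusted p = 0.16). In 69.8% of all probes, and in 18 of the 20 collagen probes, the nc and qhsc arrays did not overlap.

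**Figure D2:**
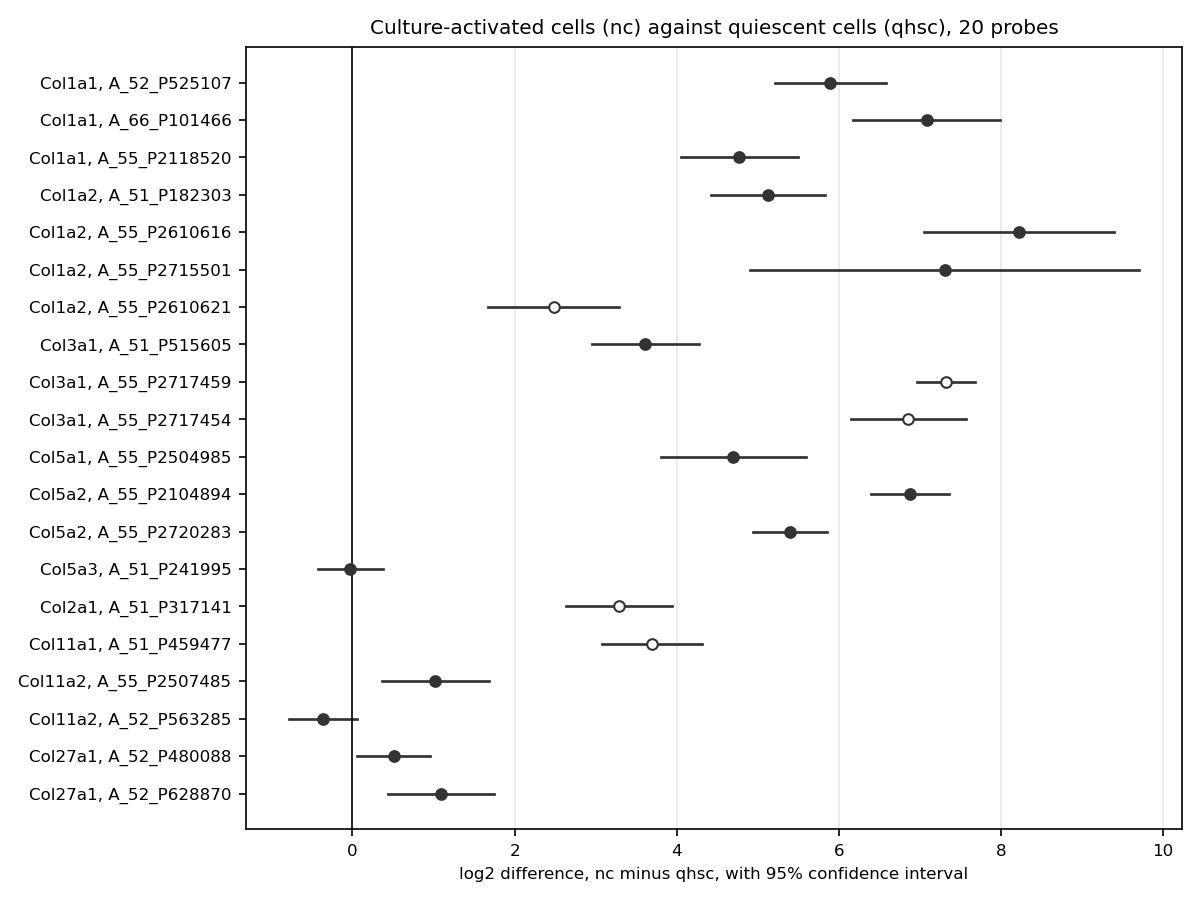
The log2 difference nc minus qhsc (x axis) is drawn for the 20 tested probes, with 95% confidence intervals as lines from the limma fit over 9 arrays; open points mark probes below background on all qhsc arrays, whose fitted difference is no bound. Estimates ran from -0.37 for the Col11a2 glycine-repeat probe to 8.22 for a Col1a2 probe, and probes of 1 gene often differed by more than their intervals.

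Markers of other cells moved with these differences. Of 10 listed hepatocyte markers all 10 passed the filter, and their summed signal was 13.7 to 14.8 in si-cav cells, 15.1 to 19.5 in nc cells and 1010.3 to 1284 in qhsc cells. In cultured cells Ass1, named with its values seen, averaged log2 signals of 3.82 (si-cav) and 4.14 (nc). Every other hepatocyte marker had a negative mean log2 signal there. All 10 endothelial markers were also lower in nc cells, with sums of 0.80 to 0.85 in si-cav cells, 0.84 to 0.88 in nc cells and 349.9 to 589 in qhsc cells. Kupffer cell and macrophage markers, 10 of 10 lower in nc cells, summed to 7.93 to 8.75 in si-cav cells, 9.80 to 10.8 in nc cells and 242 to 410.2 in qhsc cells. Lymphocyte and neutrophil markers, 8 of 8 lower in nc cells, summed to 0.40 to 0.41 (si-cav), 0.38 to 0.46 (nc) and 24.7 to 57.8 (qhsc). Of 4 tested cholangiocyte markers 2 were higher and 1 lower in nc cells. Their sums were 24.9 to 27.9 (si-cav), 27.4 to 33.2 (nc) and 2.06 to 6.03 (qhsc). Mesothelial and portal fibroblast markers, from cells that also make fibrillar collagen, moved the same way as the collagens, 8 of 9 tested higher and 1 lower in nc cells. Their sum was 229.96 to 243 in si-cav cells, 228 to 242 in nc cells and 2.90 to 4.13 in qhsc cells. In nc cells the brightest of them were Fbln2 and Cd34, at mean log2 signals of 7.00 and 6.22, with Wt1 next at 4.17. These genes were named with their values seen. Myofibroblast markers, 7 of 8 higher, summed to 491 to 493 in si-cav cells, 422 to 453 in nc cells and 3.58 to 6.78 in qhsc cells. The part of these cell contents in the collagen differences was not tested. Within the quiescent group, qhsc array 2 had the highest stellate marker sum, 77.3, against 42.2 and 28.1 on qhsc arrays 1 and 3, and it was also the highest for the brightest probes of Col1a1, Col1a2, Col3a1 and Col5a1. The same array had the highest sums of the endothelial, cholangiocyte, mesothelial and portal fibroblast, smooth muscle and myofibroblast markers, and the lowest of the hepatocyte and Kupffer markers. Its endothelial sum was 589, against 349.9 and 356 on qhsc arrays 1 and 3.

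The Cav1 siRNA was set against the control siRNA in activated cells to see whether fibril chains follow caveolin-1. No collagen probe was called. Of 20 probes 0 were higher and 0 lower in si-cav cells by limma after adjustment (adjusted p = 0.9999 for each), 0 had an unadjusted p under 0.05, and 8 had a positive and 12 a negative log2 difference. The same fit called 0% of all probes higher and 0% lower, and 1711 of 36817 had an unadjusted p under 0.05. The median log2 difference was -0.07 over the collagen probes and -0.02 over all probes, and the range over collagen probes was -0.44 to 0.47.

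Intervals over all 9 arrays take in the wider spread of the quiescent arrays, so those given next come from the 6 si-cav and nc arrays alone. Col1a1 read 7.15, 6.91 and 7.09 on the si-cav arrays, against 6.76, 6.97 and 6.93 on the nc arrays, by its first probe. The groups overlapped, and the fold was 1.12 with a 95% confidence interval of 0.94 to 1.34. The overlapping probe gave 1.22 (0.89 to 1.69) and the probe further on gave 0.89 (0.79 to 1.01), so the Col1a1 probes did not share a direction. Col1a2 read 7.69, 7.53 and 7.63 on the si-cav arrays, against 7.28, 7.58 and 7.50 on the nc arrays, a fold of 1.12 (0.94 to 1.34) by its RefSeq probe. Its Ensembl probes gave 1.03 (0.91 to 1.18), 1.02 (0.87 to 1.19) and 0.82 (0.56 to 1.18). Col5a1 had a fold of 0.92 (0.72 to 1.19), and Col5a2 1.23 (0.85 to 1.78) and 0.98 (0.83 to 1.14) by its probes. None of these intervals reaches a 2-fold change in either direction. Over all 9 arrays some do, with 0.74 to 2.01 for the overlapping Col1a1 probe, 0.48 to 1.68 for the Col1a1 probe further on and 0.496 to 1.72 for Col5a1. The Ensembl probes of Col1a2 had 0.46 to 2.33, 0.19 to 5.36 and 0.47 to 1.43 in that fit.

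Col3a1 was lower on every si-cav array than on any nc array in all 3 of its probes, by small amounts. The RefSeq probe read 5.87, 5.83 and 5.89 on the si-cav arrays, against 5.99, 6.04 and 6.01 on the nc arrays, a fold of 0.90 (0.80 to 1.02). The Ensembl probes gave 0.84 (0.70 to 1.00) and 0.79 (0.68 to 0.92). These 3 probes read 1 gene in the same RNA and are not replicates. Col5a3 read -1.08, -1.14 and -1.14 on the si-cav arrays, against -0.64, -0.79 and -0.84 on the nc arrays, a fold of 0.78 (0.67 to 0.90, adjusted p = 0.19 over the 6 arrays). Col11a1 was the chain with the opposite order. It read -2.50, -2.65 and -2.68 on the si-cav arrays, against -3.10, -3.09 and -3.05 on the nc arrays, a fold of 1.39 (1.21 to 1.59, adjusted p = 0.13). The brighter Col11a2 probe read -4.33, -4.61 and -4.38 on the si-cav arrays, against -4.15, -3.90 and -3.94 on the nc arrays, a fold of 0.74 (0.60 to 0.90, adjusted p = 0.22).

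In all, the si-cav and nc arrays did not overlap in 7 of 20 collagen probes, namely those of Col3a1, Col5a3, Col11a1 and Col11a2 just given and the Col1a1 probe further on. The same was true of 22.4% of all probes. Within slide 2, which held nc arrays 2 and 3 with all si-cav arrays, 0 collagen probes were called. There Col11a1 differed by a log2 of 0.46 (adjusted p = 0.22), Col5a3 by -0.30 (adjusted p = 0.25) and the Col11a2 probe by -0.52 (adjusted p = 0.23). Col2a1 read -2.35, -2.84 and -2.50 on the si-cav arrays, against -3.06, -2.07 and -2.38 on the nc arrays. The Col27a1 probes had folds of 0.80 (0.63 to 1.03) and 0.95 (0.80 to 1.14) over the 6 arrays.

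**Figure D3:**
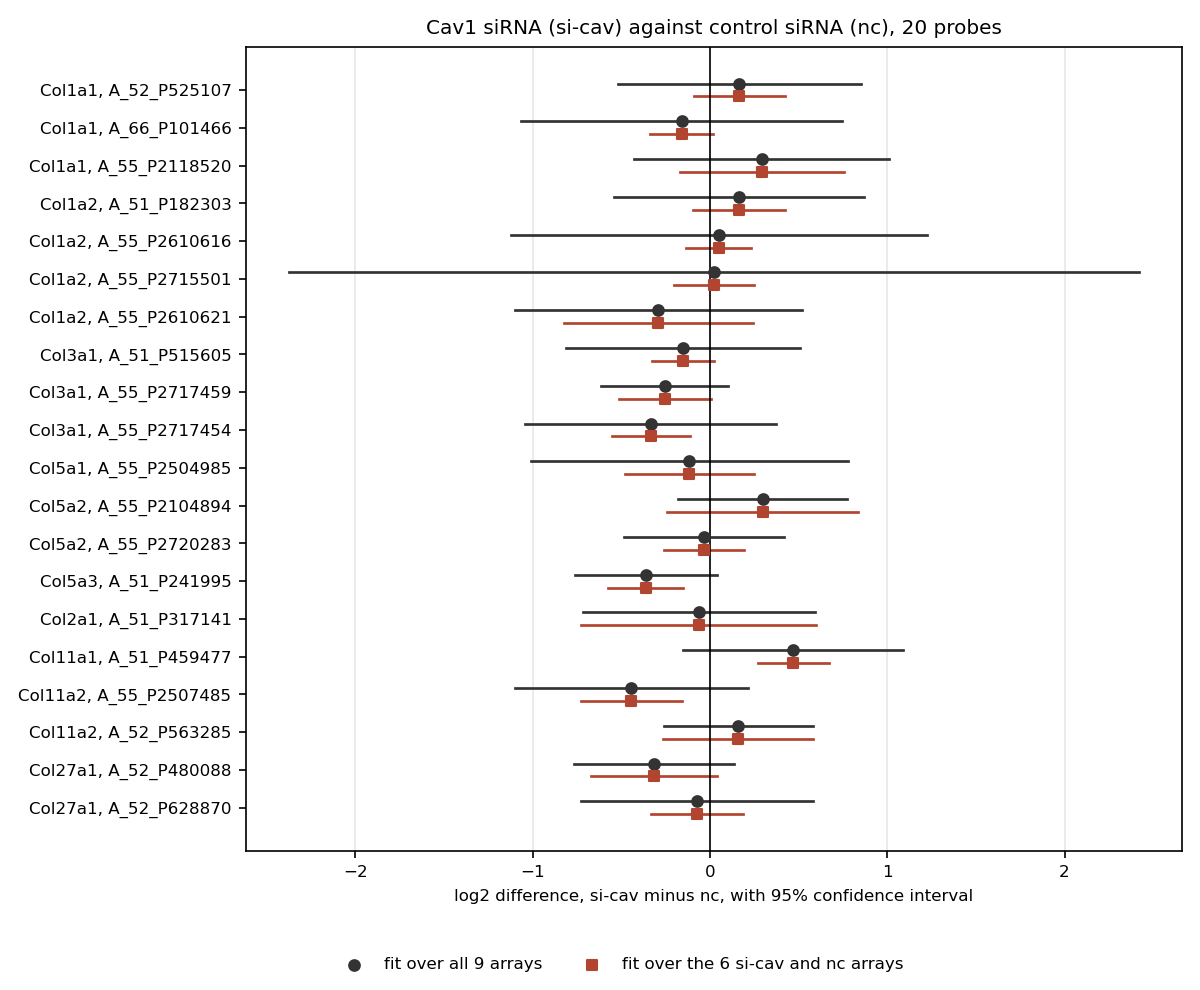
The log2 difference si-cav minus nc (x axis) is drawn for the 20 tested probes with 95% confidence intervals, from the fit over all 9 arrays (circles) and from the fit over the 6 si-cav and nc arrays (squares). All estimates lie between -0.44 and 0.47, and the smaller fit has intervals clear of 0 for Col11a1, above, and for Col5a3, 1 Col3a1 and 1 Col11a2 probe, below, with adjusted p of 0.13 to 0.23.

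Set against quiescent cells, the si-cav cells had high fibrillar collagen. Of 20 probes 16 were higher and 0 lower, where 41.8% of all probes were higher and 25.9% lower. This comparison shares its qhsc arrays with the first and its si-cav arrays with the second. Col1a1 was 66.6-fold higher, Col1a2 39.1-fold, Col3a1 11.0-fold, Col5a1 23.9-fold and Col5a2 144-fold, each by its brightest probe and with adjusted p at most 7.4e-06. Col2a1 was at least 5.28-fold and Col11a1 at least 5.12-fold higher by the processed signal. After normexp background correction Col5a2 was 28.2-fold, Col2a1 1.63-fold and Col11a1 1.69-fold higher. In that setting 14 of the 20 probes were higher and 3 lower, where 31.4% of all 36817 probes were higher and 14733 of them lower. In the main scaling the 4 probes not called were those of Col5a3 (log2 -0.39, adjusted p = 0.079), both of Col11a2 (0.58 and -0.21, adjusted p = 0.10 and 0.34) and the brighter one of Col27a1 (0.19, adjusted p = 0.41). The Col5a3 value was called lower without qhsc array 1 (log2 -0.57, adjusted p = 0.0082) and after normexp background correction (-0.43, adjusted p = 0.019). The value of the brighter Col11a2 probe was called higher without qhsc array 3 (0.94, adjusted p = 0.0020). It was called lower after normexp background correction (-0.36, adjusted p = 0.033), as was the glycine-repeat probe (-0.51, adjusted p = 0.0087). Before scaling, the processed signals of both Col11a2 probes were higher on the si-cav arrays. The brighter probe had 26.672 to 32.806, against 8.2216 to 19.576 on the qhsc arrays, and the glycine-repeat probe 18.842 to 24.373, against 12.547 to 16.366. The part of offset and scaling in these lower calls was not tested.

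Genes that act on fibrillar collagen were read by the brightest probe of each. Of 60 listed names of partner genes 59 matched the array, all but Tango1, and 54 were tested. In nc cells 40 were higher and 6 lower than in qhsc cells, and 8 were not called, where 42.1% of all genes read this way were higher and 26% lower. The median log2 difference was 2.57, against 0.32 over all genes so read. All 5 crosslinking genes rose. Lox, the lysyl oxidase that starts collagen crosslinks, had the greatest rise of the list with a log2 difference of 10.02 (SE 0.54, adjusted p = 3.1e-07, above background on 1 of the 3 qhsc arrays), and of 7.41 after normexp background correction. Its relatives Loxl1, Loxl2, Loxl3 and Loxl4, named with their values seen, gave 6.10, 4.07, 3.12 and 2.79, or 5.04, 3.91, 1.76 and 1.08 after that correction.

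The enzymes that cleave propeptides, with their enhancers, rose in 8 of 8 tested cases. Of the prolyl hydroxylases, which stabilise the helix or modify single prolines, 6 of 7 rose, and P3h2 was lower in nc cells (log2 -4.17, SE 0.52, adjusted p = 8.8e-05). The lysyl hydroxylases prepare crosslink sites. With their values seen, Plod2 and Plod3 rose by 7.42 and 1.77, and Plod1 had a difference of -2.21 (adjusted p = 3.5e-06). After normexp background correction P3h2 gave -1.82, Plod2 4.71, Plod3 1.81 and Plod1 -1.79. Of chaperones and secretion factors 7 of 11 were higher and 1 lower, and of fibril regulators 6 of 12 were higher and 2 lower. Among receptors and uptake genes 6 of 8 rose. Itga11, a collagen-binding integrin of fibroblasts, was at least 224-fold higher in nc cells by the processed signal (adjusted p = 1.1e-07) and 42.4-fold after normexp background correction, while Lair1, a collagen receptor of immune cells, was lower (log2 -5.87, SE 0.18, adjusted p = 1.1e-08), or -4.35 after that correction. The remaining mouse fibrillar chain gene Col24a1 was below the filter and was not tested.

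**Figure D4:**
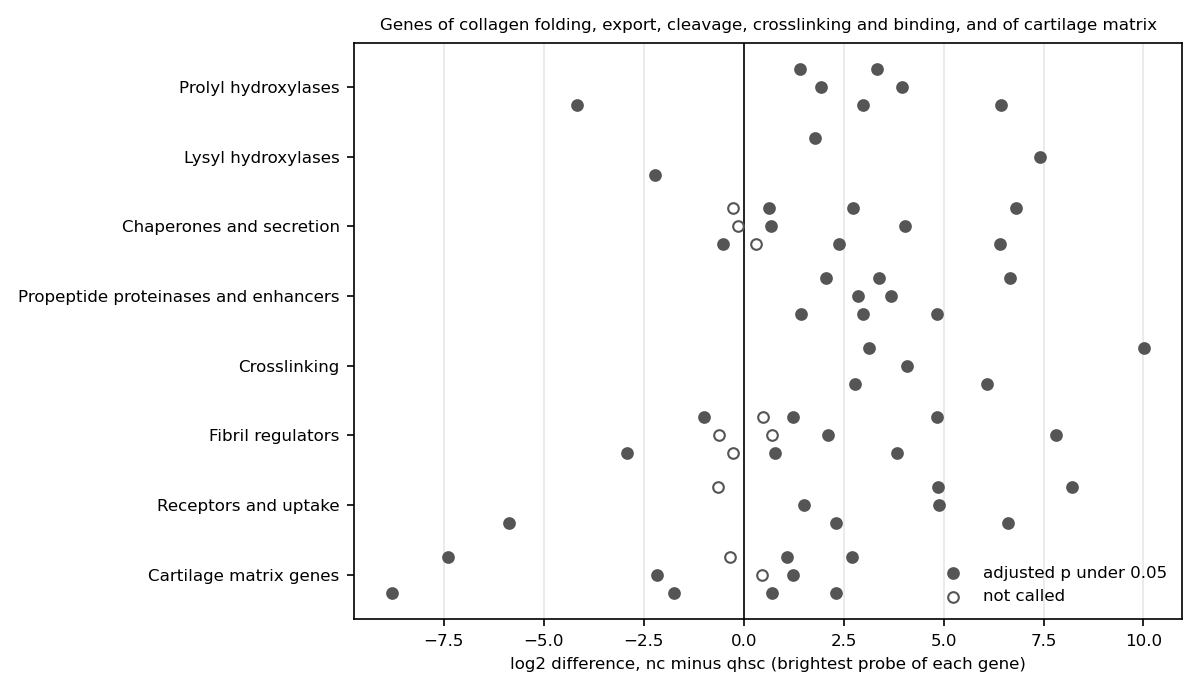
The log2 difference nc minus qhsc (x axis) is drawn for the brightest tested probe of each partner gene, by class, and of each cartilage matrix gene (bottom row). Filled points had an adjusted p under 0.05 and open points did not; vertical spread within a row has no meaning. Crosslinking and propeptide genes lie to the right of 0, and the cartilage genes lie on both sides.

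Other genes of cartilage matrix were read in the same way as the partner genes. Of 18 listed, 11 were tested, and in nc cells 5 were higher, 4 lower and 2 not called, with a median log2 difference of 0.45. Over all genes 42.1% were higher and 26% lower, with a median of 0.32. Matn3, a matrilin of cartilage matrix, was at least 1.92-fold higher by the processed signal (adjusted p = 5.9e-05), but its log2 difference was -0.011 after normexp background correction (adjusted p = 0.949). Matn4 had a log2 difference of 2.30 (SE 0.31, adjusted p = 0.00015, above background on 1 qhsc array), or 0.60 after that correction. Sox6, a transcription factor of chondrocytes, was at least 103-fold lower (adjusted p = 3.6e-08), and Cnmd, which encodes chondromodulin, at least 39.5-fold lower (adjusted p = 3.3e-06). Acan, the main cartilage proteoglycan, did not pass the filter. After normexp background correction the split was 1 higher and 7 lower, where 31.1% of all 36817 probes were higher and 14316 of them lower. There Sox6 had a log2 difference of -3.89, and Cnmd, listed on the array as Lect1, -3.02. Of 8 chondrocyte markers 4 were tested, with summed signals of 0.21 to 0.28 in si-cav cells, 0.21 to 0.31 in nc cells and 0.23 to 1.32 in qhsc cells. That list includes Col2a1 itself, 3 of the 4 were higher in nc cells, and Cnmd was the 1 that was lower and the 1 above background in qhsc cells. After the Cav1 siRNA 0 of 54 partner genes and 0 of 11 cartilage genes were called in either direction, where 0% of all genes were, with medians of 0.03 and -0.06.

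The genes with a 9-array profile closest to that of the first Col1a1 probe were found from the root mean square difference of centred log2 signals. The 5 closest outside the 10 chains were Gm15867 (0.12), Hoatz (0.13), Galnt17 (0.14), Fstl1 (0.15) and Gm30873 (0.16). Fstl1 encodes a secreted glycoprotein, and it had a log2 difference of 6.13 between nc and qhsc cells and 0.13 between si-cav and nc cells. Among the chains Col1a2 was closest at 0.37, followed by Col5a2 at 0.61 and Col5a1 at 0.68, while Col5a3 was the furthest at 2.94. The profiles share the same 9 arrays and the same scaling, and the distances are a description.

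Start sites were available in RefSeq's GRCm38.p6 promoter table for 7 of the 10 genes, and 300 bases of each were searched on both strands. The CCAAT box (CCAAT or ATTGG) was found in 3 of 7, against 37.4% of 32851 promoters, the TATA box (TATAAA or TTTATA) in 2 of 7, against 13.6%, and the GC box (GGGCGG or CCGCCC) in 6 of 7, against 35.7%. The promoters of Col1a2, which rose, and Col5a3, which was not called, are shown from 250 bases before to 30 bases after the start because both hold a CCAAT box, in capitals, as does that of Col11a1. Col1a2 lies at chr6:4505368-4505647 on the plus strand with 2 boxes, and Col5a3 at chr9:20815038-20815317 on the minus strand with 1. A match is a description of the letters only.
Col1a2 promoter: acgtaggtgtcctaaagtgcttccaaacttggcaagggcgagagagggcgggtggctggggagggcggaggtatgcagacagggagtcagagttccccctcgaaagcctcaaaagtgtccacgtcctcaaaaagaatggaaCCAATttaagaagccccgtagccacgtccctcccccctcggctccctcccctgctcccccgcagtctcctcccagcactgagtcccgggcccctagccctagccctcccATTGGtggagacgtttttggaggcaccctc
Col5a3 promoter: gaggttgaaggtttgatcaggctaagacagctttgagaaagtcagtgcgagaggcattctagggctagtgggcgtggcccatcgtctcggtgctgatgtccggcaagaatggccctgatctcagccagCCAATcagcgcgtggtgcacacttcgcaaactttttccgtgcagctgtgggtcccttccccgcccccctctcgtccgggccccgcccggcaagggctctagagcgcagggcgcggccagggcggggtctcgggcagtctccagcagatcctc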

How the data were processed

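Agilent Feature Extraction 10.7.1.1 turned the 9 array scans into spot values, per the submitters' processing notes. The deposited files hold, for each spot, the processed signal, a background-subtracted linear intensity that was not scaled across arrays, per the file headers. The mean and background intensity and the flags of the authors' files were also used. Probe positions refer to mm9, per the file headers. A series-wide table, also deposited, repeats the intensity of each probe and served as an alternative.

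Processed signals of 59305 non-control spots per array (of 62976) were put on the log2 scale, the array's 75th percentile was subtracted, and replicate spots were averaged after dropping outliers. Probes stayed in the test if a share of 0.5 or more of their spots exceeded background clearly on the 3 arrays of some group, and 68 probes with only outlier spots on an array were left out. Tests used limma 3.58.1 under R 4.3.3, two-sided, with lmFit and eBayes fitted to the 9 arrays, Benjamini-Hochberg adjusted over all probes, with calls at an adjusted p under 0.05. The fit was also run on simulated data with normal noise of equal spread in all groups. The changes put into them were larger than any collagen difference between si-cav and nc, so changes that small were not covered. Where a probe was below background throughout a group, its fold is a bound that sets each array there at its dimmest clearly detected signal or, if higher, at the probe's own. Plots used matplotlib 3.10.9 (Python 3.11.15). Array number and, for dim probes, background limit the precision. No 2 arrays held identical values.

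The 10 genes, the partner and cartilage lists and the tests were chosen with earlier results of these data known. The text names the 10 genes, Cav1, the 2 partner and cartilage genes with the largest called rise and fall, and the 5 genes closest in profile to Col1a1. Other partner genes are named where said. Promoters come from RefSeq (GRCm38.p6). Alternatives covered background correction, scaling, filters, outlier spots, array weights, slide, replicate number and single arrays.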

Additional observations from a re-analysis of the deposited data

How the results depend on the processing

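The alternatives gave 418 values of single collagen probes for nc against qhsc. Of these 397 kept their side of the threshold, 18 lost their call, 1 gained one and 2 reversed. The 397 include 7 values that changed sign without a call in either setting. For si-cav against nc all 418 stayed uncalled, with 17 changes of sign. For si-cav against qhsc 389 of 398 kept their side of the threshold, and these include 4 uncalled changes of sign. The reversals came when normexp corrected the background before scaling to the 75th percentile, for the brighter Col11a2 probe (-0.24 for nc and -0.36 for si-cav, each against qhsc) and the dimmest Col1a2 probe (-0.078 and -0.12), and, of the named cartilage genes, for Matn3 (-0.011 and -0.036); the cause was not tested. That setting gave 14 collagen probes higher and 1 lower in nc, and 14 higher and 3 lower in si-cav, than in qhsc, 15 probes called for si-cav against nc, and, of the cartilage genes, 1 higher and 7 lower in nc and 0 higher and 7 lower in si-cav. It moved the median log2 difference of all probes between nc and qhsc to -0.14, against 0.36 in the main setting and 0.51 with median scaling, and the share of calls that were higher to 44.4%, against 63.3%; the collagen median was 3.21 there and 4.88 with median scaling. With normexp and quantile normalization 8 probes were called for si-cav against nc, 1 collagen probe was lower in si-cav than in qhsc, and 3 cartilage genes were higher in nc. Median scaling gave 5 cartilage genes higher in si-cav than in qhsc. The filter on all 9 arrays left 8 collagen probes, 7 higher in nc and 6 in si-cav than in qhsc, where 41.4% and 41.5% of 24751 probes were higher. It left 1 higher and 0 lower cartilage genes of 2 in each, and 8 probes called for si-cav against nc. Without a filter 31901 probes were called for nc against qhsc, 47.6% of them higher in nc, and 1 collagen probe was lower in nc and 1 in si-cav, the Col11a1 probe below background on all arrays (-1.66 and -1.72). Fits on the 2 groups compared gave 5 probes called for si-cav against nc and 3 cartilage genes higher in nc. Array weights called 948 probes for si-cav against nc, with 1 partner and 1 cartilage gene lower and 0 collagen probes. With the slide as a block 15335 probes were called for si-cav against qhsc, with 2 cartilage genes higher in nc and 1 in si-cav; within slide 1, 11176 probes were called for nc against qhsc and 2 cartilage genes were higher. Over brightest probes only, 16328 probes were called for nc and 16210 for si-cav against qhsc, fewer because fewer were tested. Of 10 collagen probes 9 and 7 were higher there, where 42.1% and 40.4% of 23965 probes were higher. Leaving out single arrays gave 17 to 18 collagen probes higher in nc, where 38.1 to 43.9% of all probes were higher. In si-cav 16 to 17 were higher and 0 to 1 lower than in qhsc, where 37.0 to 42.7% of all probes were higher. The same fits gave 3 to 5 cartilage genes higher in nc, and 0 to 3 probes called for si-cav against nc. With the replicate block 17 collagen probes were higher in nc, where 41.8% of all probes were higher. There the brighter Col27a1 probe lost its call (limma adjusted p = 0.077), and 0 collagen probes were called for si-cav against nc. Deviations of same-numbered samples correlated at -0.10 to 0.16, so the numbers were not taken to pair the samples. For probes such as those of Col2a1, Col11a1 and Col11a2 the signal near background limits every fold.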
